A study of Mus musculus with 4 samples.

Results

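Dendritic cells sample antigen in the spleen and present it to T cells. Conventional dendritic cells come in a cDC1 form, which cross-presents antigen to CD8 T cells, and a cDC2 form, which mainly primes CD4 T cells, while plasmacytoid dendritic cells make type I interferon. Genes of these cells were followed in mouse spleens with and without B cell leukaemia. They were 31 named genes, found by matching each name to a probe set that carries it as its single gene symbol, and 30 of them were measured among 19297 genes in all. Runx2, a transcription factor of plasmacytoid cells, was not analysed here. By known role, the measured genes fall into 4 plasmacytoid, 12 cDC1, 7 cDC2, 5 shared conventional and 2 maturation genes.

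Whole spleens of 2 wild type and 2 leukaemic mice, all of 129Sv background, were profiled on 1 array each. Wild type mice were RBP-J flox/flox;Ren1d+/+, females aged 80 and 81 days with spleens of 0.12 g and 0.16 g. Leukaemic mice were RBP-J flox/flox;Ren1dcre/cre, namely replicate 1, a female of 107 days with a spleen of 0.7 g, and replicate 2, a male of 93 days with a spleen of 0.47 g. All 4 mice therefore carried floxed RBP-J, the DNA-binding partner of Notch receptors, and cre was present at both Ren1d alleles only in the leukaemic mice, where it acts in cells that use, or whose ancestors used, this renin gene. Genotype, age and spleen weight cannot be told apart between the groups. The only male was leukaemic replicate 2, so sex is not balanced between the groups and also differs between the leukaemic mice. In bulk spleen RNA, fewer cells of a type and less RNA per cell also cannot be told apart.

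Dendritic cell development starts from Flt3-expressing progenitors, and the balance of transcription factors then sets the branch. TCF4, an E protein, holds the plasmacytoid fate, ID2 restrains E proteins in conventional cells, and BATF3 with IRF8 maintains cDC1. Splenic cDC2 that bear ESAM depend on NOTCH2, which signals through RBP-J.

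Expression values are log2 values per probe set, so a difference of 1 is a 2-fold change. Called means a Benjamini-Hochberg adjusted p under 0.05 in limma, a linear model with variances moderated across genes. Of all 19297 genes, 2.46% were called, 1.03% as lower and 1.43% as higher in leukaemic spleen. Levels near those of genes that spleen does not use carry no exact fold. Among 22 measured genes of retina, lens, lung, kidney, brain and similar tissues, the median wild type mean was 6.53 and the highest 8.09. Of the dendritic cell genes, 25 had a wild type mean above that highest value and 20 also a leukaemic mean above it. The wild type means of Batf3, Itgae, Mycl, Clec10a and Clec4a4 lay below it, so their differences in particular are not exact. This limit rests on wild type means, and 1 of the 22 genes had a leukaemic mean above it. The largest log2 difference among the 22 was 1.885.

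Across both dendritic cell branches, 7 of 30 genes fell in leukaemic spleen, 0 rose and 23 did not pass, where 1.03% of all genes fell and 1.43% rose. Those that fell were Siglech and Pacsin1 of plasmacytoid cells, Clec9a, Xcr1, Plbd1 and Cadm1 of cDC1, and Itgax, which encodes CD11c. At an unadjusted limma p under 0.05, 21 were lower and 0 higher, against 10.6% of all genes lower and 1939 of 19297 higher. Both leukaemic arrays lay below both wild type arrays in 22 of 30 genes, a pattern found in 26.2% of all genes, and above them in 2, against 23% of all genes. The median log2 difference was -0.73, beside -0.03 over all genes tested. It was -0.79 for the 4 plasmacytoid genes and -0.72 for the 26 conventional ones, and no test of plasmacytoid against conventional genes was made.

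The calls depended on which arrays were fitted. Without wild type replicate 1, and likewise without wild type replicate 2, limma called 0 of the 30 genes, with 15 and 20 at an unadjusted p under 0.05. Without leukaemic replicate 1 it called 8 genes, and without leukaemic replicate 2 it called 11, with 4 of the original 7 among them in each case. In these last fits the estimated prior degrees of freedom were infinite, so every gene was given a common variance and its own spread between mice was ignored. Their calls therefore say nothing about how stable a gene's call is. The fits without a wild type array called few genes or none of any kind, so a call lost there is no trait of a particular gene. Among all genes 38, 0, 491 and 1043 were called in these 4 fits.

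**Figure D1:**
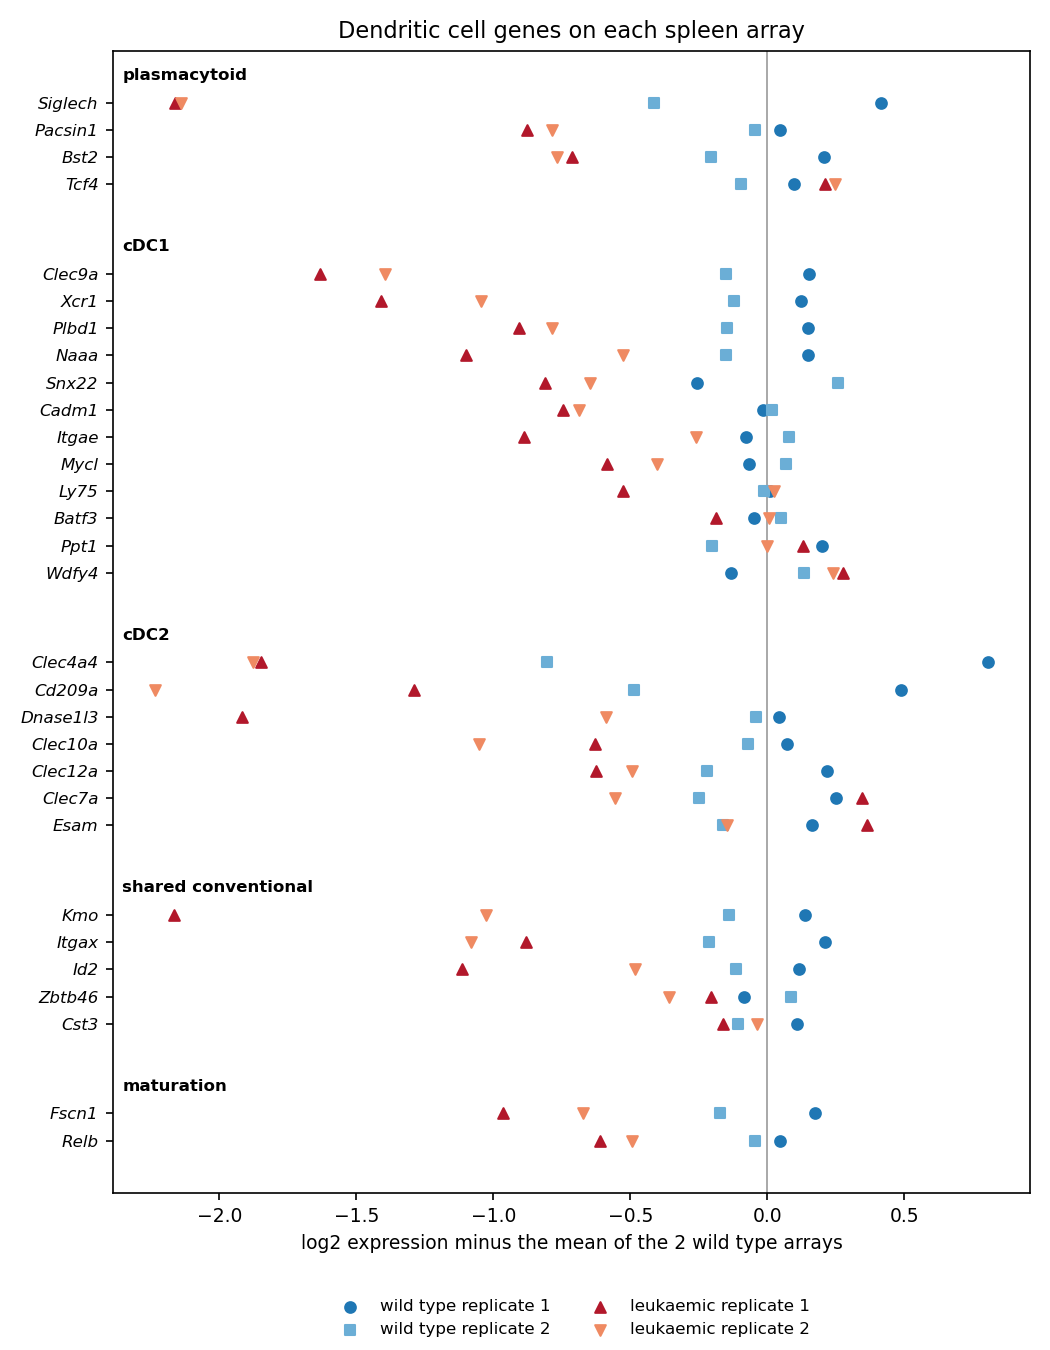
Each row is a gene and each symbol an array, placed by its log2 expression minus the mean of the 2 wild type arrays, with wild type in blue and leukaemic in red tones. In 22 of 30 rows both leukaemic symbols lie to the left of both wild type symbols, while the Tcf4 and Wdfy4 rows show them on the right.

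The regulatory DNA just before the start sites of Siglech, Clec9a and Itgax is shown because these are the called genes with the largest difference in the plasmacytoid, cDC1 and shared conventional roles. Each run holds the 250 bases upstream of the RefSeq start, 5′ to 3′, in assembly GRCm38.p6 on the plus strand, at chr7:55767934-55768183, chr6:129408612-129408861 and chr7:128129300-128129549. Capitals mark E-boxes (CANNTG), the letters E proteins such as TCF4 recognise, and the AP-1 letters TGANTCA, which BATF family dimers with JUN recognise.
Siglech: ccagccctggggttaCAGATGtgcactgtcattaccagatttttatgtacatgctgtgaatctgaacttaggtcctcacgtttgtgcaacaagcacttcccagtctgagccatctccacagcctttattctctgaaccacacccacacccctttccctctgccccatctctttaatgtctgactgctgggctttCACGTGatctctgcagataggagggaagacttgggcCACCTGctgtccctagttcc
Clec9a: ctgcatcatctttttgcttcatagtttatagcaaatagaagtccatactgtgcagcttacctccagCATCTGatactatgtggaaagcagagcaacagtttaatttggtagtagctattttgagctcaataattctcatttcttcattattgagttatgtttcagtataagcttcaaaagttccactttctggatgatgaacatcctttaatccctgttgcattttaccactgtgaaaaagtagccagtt
Itgax: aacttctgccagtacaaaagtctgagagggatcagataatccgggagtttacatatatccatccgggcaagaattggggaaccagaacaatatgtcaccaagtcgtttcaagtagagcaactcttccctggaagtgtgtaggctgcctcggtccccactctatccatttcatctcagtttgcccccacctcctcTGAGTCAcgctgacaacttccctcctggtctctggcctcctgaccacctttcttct

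The Siglech window held 3 E-boxes, the Clec9a window 1 and the Itgax window 0, whereas the Itgax window held 1 AP-1 match. Windows of this length were listed for 23 of the 31 genes (the first listed where a gene had several), and 18 of these held an E-box on either strand, as did 66.2% of all 32851 windows. AP-1 letters were in 3 of 23, against 6.75% of all windows. An ETS core of the PU.1 type (GAGGAA) was in 5 of 23 and in 23.3% of all windows. Of the 7 genes that fell, 6 had a window, and 4 of those held an E-box, 1 AP-1 letters and 0 the ETS core. A match describes letters and not a bound site.

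Among plasmacytoid genes, Siglech had the largest measured difference of the 30 genes. Siglech encodes an endocytic receptor that is the standard surface marker of mouse plasmacytoid cells. It read 9.82 and 8.996 in wild type replicates 1 and 2, and 7.25 and 7.27 in leukaemic replicates 1 and 2. The leukaemic arrays sat together and well below the wild type arrays, which lay 0.83 apart. The log2 difference was -2.15 (SE 0.26, 95% interval -2.77 to -1.53, limma adjusted p = 0.018). Its leukaemic mean, 7.26, lay among the values of genes foreign to spleen, so the difference is not exact. Without wild type replicates 1 and 2 the Siglech difference was -1.74 and -2.56.

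Pacsin1, which encodes a membrane-bending protein that plasmacytoid cells use in interferon production, read 8.62 and 8.53 in wild type, compared with 7.70 and 7.79 in leukaemic spleen. The groups were tight and apart, with a fall of 0.83 on the log2 scale (SE 0.14, limma adjusted p = 0.037). Without wild type replicates 1 and 2 the Pacsin1 difference was -0.79 and -0.88. Without leukaemic replicates 1 and 2 its difference was -0.79 and -0.88. Its leukaemic mean of 7.75 also lay below the highest value of the genes foreign to spleen. Bst2, the surface protein tetherin, marks plasmacytoid cells and is also induced by interferon and expressed by plasma cells. It read 10.05 and 9.63 in wild type against 9.13 and 9.07, a difference of -0.74 that did not pass (SE 0.18, limma adjusted p = 0.075). Tcf4, the E protein that maintains the plasmacytoid fate and that B lineage cells also express, had a difference of the other sign, at 10.61 and 10.41 in the wild type mice, against 10.72 and 10.76 in the leukaemic mice. Its difference of 0.23 did not pass (95% interval -0.11 to 0.57, limma adjusted p = 0.46). The surface marker and the lineage regulator therefore had differences of opposite sign on the same arrays.

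In the cDC1 group 4 of 12 genes fell, against 1.03% of all genes, and 8 did not pass. Leukaemic arrays lay entirely below the wild type ones in 8, against 26.2% of all genes. Clec9a, which encodes DNGR-1, the receptor through which cDC1 sense dead cells, read 8.71 and 8.41 in wild type, compared with 6.93 and 7.16 in leukaemic spleen. The difference of -1.51 (SE 0.17, limma adjusted p = 0.014) had the smallest p of the 30 genes, and it is not exact, since the leukaemic mean of 7.05 lay below the highest value of the genes foreign to spleen. Xcr1, the receptor for the chemokine XCL1 and a marker of cDC1, read 9.71 and 9.46 against 8.17 and 8.54, a difference of -1.23 (SE 0.18, limma adjusted p = 0.029). Both genes were separate between groups by more than the gap within either group. Without wild type replicates 1 and 2 the difference was -1.36 and -1.66 for Clec9a, and -1.11 and -1.35 for Xcr1.

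The other called cDC1 genes were close to the threshold. Plbd1, which encodes a phospholipase B-like protein enriched in cDC1, read 11.56 and 11.27 in the wild type mice, against 10.51 and 10.63 in the leukaemic mice, and Cadm1, the adhesion molecule that binds CRTAM on T cells, 9.17 and 9.21 against 8.45 and 8.51. Their differences were -0.85 (SE 0.16) and -0.72 (SE 0.13), each with a limma adjusted p of 0.049. Centring arrays on their medians raised these to 0.054 and 0.058. Without wild type replicates 1 and 2 the difference was -0.70 and -0.99 for Plbd1, and -0.73 and -0.70 for Cadm1. Without leukaemic replicates 1 and 2 it was -0.79 and -0.91 for Plbd1, and -0.69 and -0.74 for Cadm1.

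Naaa, a lysosomal amidase, read 11.43 and 11.13 in wild type, compared with 10.18 and 10.75 in leukaemic spleen. Snx22, a sorting nexin, read 8.89 and 9.41 against 8.34 and 8.50. Mycl, the L-Myc gene that supports cDC1 numbers, read 7.80 and 7.94 against 7.28 and 7.47. Each of these had separate groups and none passed (limma adjusted p = 0.10, 0.10 and 0.13). Itgae, which encodes CD103, is shared by cDC1 with subsets of T cells. It read 7.72 and 7.88 in wild type, 6.92 in leukaemic replicate 1 and 7.54 in leukaemic replicate 2, so that leukaemic replicate 1 set most of its difference of -0.57 (limma adjusted p = 0.20).

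Further cDC1 genes had overlapping groups or a positive difference. Ly75, which encodes the endocytic receptor DEC-205 that B cells also carry, read 9.07 and 9.04 in wild type, 8.53 in leukaemic replicate 1 and 9.08 in leukaemic replicate 2. Batf3, the transcription factor on which cDC1 depend, read 7.64 and 7.74 against 7.50 and 7.70, at levels not shown to exceed background. Ppt1, a lysosomal thioesterase, read 11.76 and 11.36 against 11.69 and 11.56, with a difference of 0.06 (95% interval -0.35 to 0.48). Wdfy4, which cDC1 need for cross-presentation and which B cells also express, read 11.17 and 11.44 in the wild type mice, against 11.58 and 11.55 in the leukaemic mice. Its difference of 0.26 did not pass (95% interval -0.10 to 0.62, limma adjusted p = 0.42), and a further Wdfy4 probe set gave 0.18 (SE 0.16). So cDC1 genes ranged from -1.51 for Clec9a to 0.26 for Wdfy4.

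The cDC2 group had some of the largest differences and no call. Limma called 0 of 7, with 5 at an unadjusted p under 0.05, all lower, against 10.6% of all genes lower. Clec4a4, which encodes DCIR2, the lectin of the cDC2 that sit in the bridging channels of the white pulp, read 8.29 and 6.68 in wild type, compared with 5.63 and 5.61 in leukaemic spleen. The wild type mice were 1.61 apart, so the difference of -1.86 carried an SE of 0.46 (limma adjusted p = 0.080). Cd209a, a DC-SIGN homologue of cDC2 and monocyte-derived cells, read 10.20 and 9.22 in the wild type mice, against 8.42 and 7.47 in the leukaemic mice, a difference of -1.76 (SE 0.39, limma adjusted p = 0.066). For both genes the groups were separate and the spread between mice of a group was wide.

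Dnase1l3, a secreted nuclease of dendritic cells and macrophages that digests DNA on cell debris, split the leukaemic mice. It read 11.00 and 10.92 in wild type, 9.05 in leukaemic replicate 1 and 10.37 in leukaemic replicate 2, a difference of -1.25 (SE 0.38, limma adjusted p = 0.13). Clec10a, a galactose-type lectin, read 7.14 and 7.00 against 6.44 and 6.02 (limma adjusted p = 0.062). Clec12a, an inhibitory lectin also found on monocytes and granulocytes, read 10.93 and 10.49 against 10.09 and 10.22 (limma adjusted p = 0.15). These 3 genes had separate groups.

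Clec7a, which encodes the beta-glucan receptor Dectin-1 of cDC2 and macrophages, read 8.87 and 8.37 in wild type, compared with 8.97 and 8.07 in leukaemic spleen. Esam, the adhesion molecule that marks the NOTCH2-dependent cDC2 and is also made by endothelium and platelets, read 9.28 and 8.95 against 9.48 and 8.97. The groups overlapped in both. The difference for Esam was 0.11 (95% interval -0.39 to 0.61, limma adjusted p = 0.87), an interval that holds changes of either sign.

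**Figure D2:**
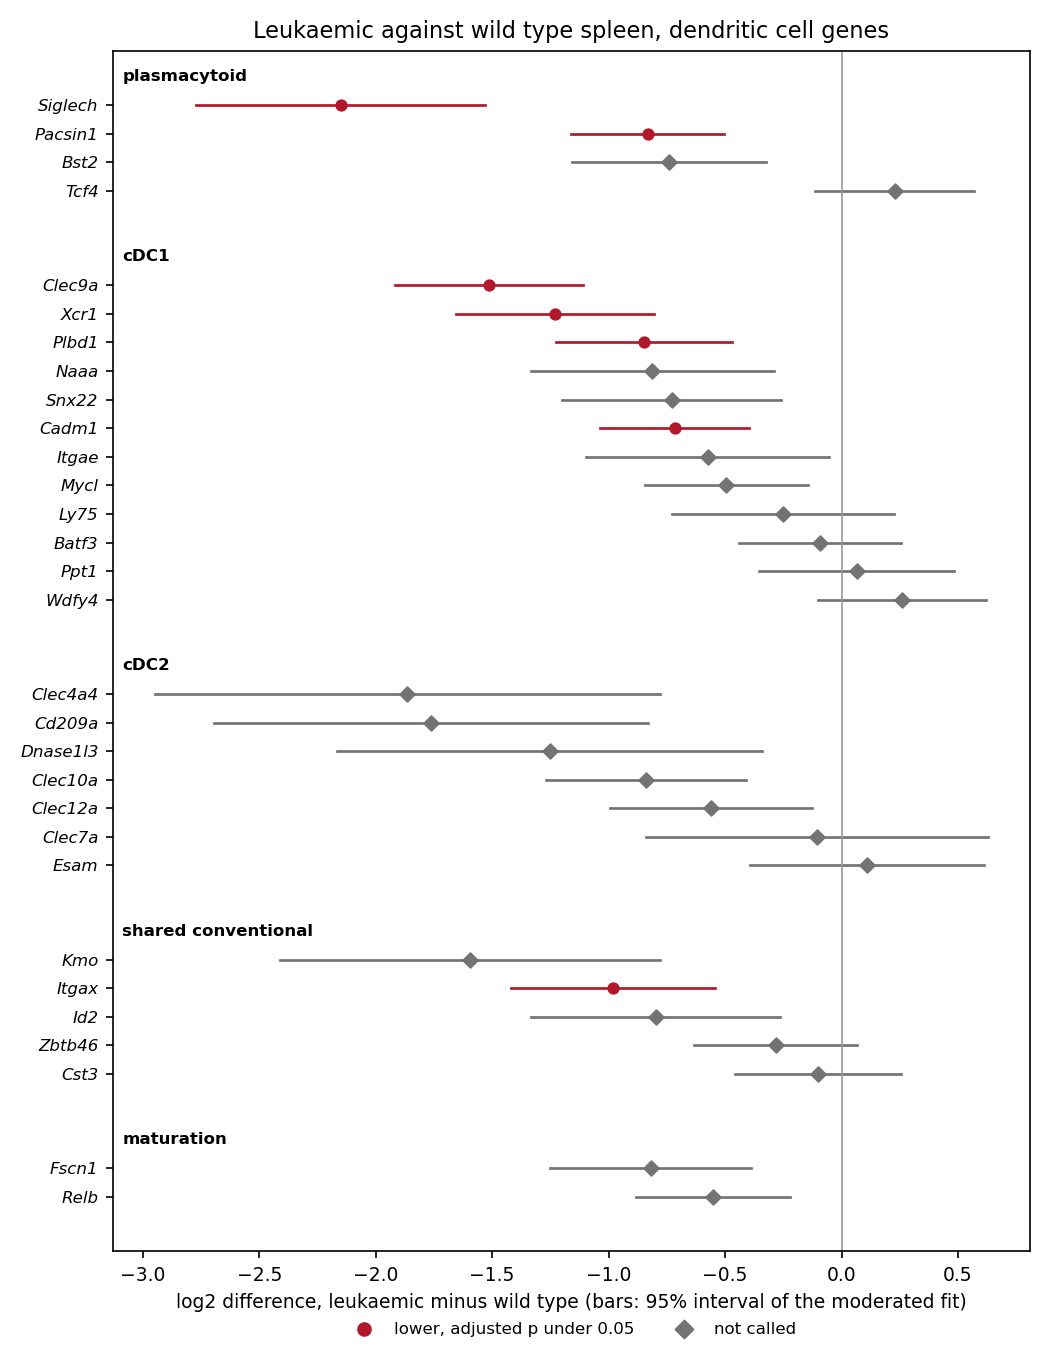
Points show the log2 difference of leukaemic minus wild type spleen for each gene by role, and bars its 95% interval from the moderated fit, with called genes in red. Intervals are widest for Clec4a4 and Cd209a, whose differences of -1.86 and -1.76 exceed those of most called genes without passing.

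Of the genes shared by conventional dendritic cells, 1 of 5 fell, against 1.03% of all genes. Itgax, the integrin chain CD11c that also occurs on macrophages and natural killer (NK) cells, read 9.45 and 9.03 in the wild type mice, against 8.36 and 8.16 in the leukaemic mice. The difference of -0.98 (SE 0.18) passed narrowly (limma adjusted p = 0.049), and it no longer did with arrays centred on their medians (0.052). Without wild type replicates 1 and 2 the Itgax difference was -0.77 and -1.19. Without leukaemic replicates 1 and 2 its difference was -1.08 and -0.88. Kmo, a kynurenine pathway hydroxylase, had the largest difference of this group. It read 10.99 and 10.71 in wild type, 8.69 in leukaemic replicate 1 and 9.82 in leukaemic replicate 2, a difference of -1.60 (SE 0.34, limma adjusted p = 0.063).

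Id2, the E protein inhibitor of conventional cells that NK cells and other innate lymphocytes express as well, read 12.12 and 11.90 in wild type, 10.89 in leukaemic replicate 1 and 11.53 in leukaemic replicate 2 (limma adjusted p = 0.11). Zbtb46, the transcription factor that sets conventional dendritic cells apart from other myeloid cells, read 8.11 and 8.28 against 7.99 and 7.84. Its difference of -0.28 did not pass (95% interval -0.63 to 0.07, limma adjusted p = 0.35). The leukaemic mean of Zbtb46, 7.91, lay below the highest value of the genes foreign to spleen, so this difference is not exact. Cst3, the protease inhibitor cystatin C, which macrophages also make, read 12.87 and 12.65 against 12.60 and 12.72, with overlapping groups. Opposed regulators thus stood at 0.23 for Tcf4 and -0.80 for Id2, neither called.

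Both maturation genes had separate groups without a call. Fscn1, the actin-bundling protein fascin of mature dendritic cells, read 9.81 and 9.46 in wild type, compared with 8.67 and 8.96 in leukaemic spleen, a difference of -0.82 (limma adjusted p = 0.066). Relb, a subunit of the noncanonical NF-kB pathway, read 8.75 and 8.66 against 8.09 and 8.21, a difference of -0.55 (limma adjusted p = 0.085).

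At least 2-fold differences were found in 7 of 30 genes, all lower, against 1.52% of all genes. These were Siglech, Clec4a4, Cd209a, Kmo, Clec9a, Dnase1l3 and Xcr1, and 3 of them were called. The leukaemic means of Siglech, Clec4a4, Cd209a and Clec9a lay below the highest value of the genes foreign to spleen, so these differences are not exact. The leukaemic mice, which also differed in sex, age and spleen weight, differed gene by gene. Leukaemic replicate 1 lay below leukaemic replicate 2 in 20 of 30 genes, or 66.7% against 44.3% of all genes. That share was 100% for neutrophil and plasma cell, 90% for NK cell, 88.9% for B cell and 77.8% for T cell markers. It was 66.7% for monocyte, 53.8% for macrophage and 40% for precursor B cell and erythroid markers. Among the 30 genes, the gap was 1.33 for Dnase1l3 and 1.14 for Kmo. The order was opposite for Cd209a and Clec7a, which were 0.95 and 0.90 lower in replicate 2. Median shifts from the wild type mean in leukaemic replicates 1 and 2 were -0.78 and -0.46 for cDC1 genes, -0.63 and -0.59 for cDC2 genes, and -0.80 and -0.78 for plasmacytoid genes.

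Wild type replicate 2 also stood apart. It lay below replicate 1 in 23 of 30 genes, 76.7% against 44.4% of all genes. These included all 7 cDC2 genes and all 4 plasmacytoid ones, but 6 of 12 cDC1 genes. The share was 100% for T cell, 90% for NK cell, 88.9% for B cell and monocyte, 76.9% for macrophage and 50% for neutrophil markers. For precursor B cell markers it was also 50%, and for plasma cell and erythroid markers it was 0%. The spleen of wild type replicate 2 carried exocrine pancreas transcripts. Its summed level of 10 pancreas markers (log2 of summed unlogged values) was 15.38, against 10.20 to 10.27 on the other 3 arrays. The part of this in the dendritic cell values was not tested. With that array left out, and so with 1 wild type array, the median difference was -0.74 for conventional genes and -0.91 for plasmacytoid genes.

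Further genes of the same cells were mostly lower, with calls in both directions. Of 53 measured, 7 fell and 4 rose, where 1.03% of all genes fell and 1.43% rose. By sign 43 were lower and 10 higher, with a median log2 difference of -0.56. At an unadjusted limma p under 0.05, 33 were lower and 5 higher, against 10.6% of all genes lower and 1939 of 19297 higher. In the plasmacytoid list 2 of 14 fell and 1 rose. Ccr9, a chemokine receptor of plasmacytoid cells and some lymphocytes, read 8.80 and 8.71 in the wild type mice, against 6.64 and 6.83 in the leukaemic mice (difference -2.02, SE 0.15, limma adjusted p = 0.0023). Tlr9, the sensor of unmethylated DNA, read 10.41 and 10.34 against 9.15 and 9.46 (-1.07, SE 0.16), and B cells use it too. Atp1b1, a sodium pump subunit, rose from 10.28 and 9.76 to 11.91 and 12.05 (1.97, SE 0.20). The groups were clearly separate for each of the 3 genes.

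Among genes of conventional cells and of dendritic cell development 5 of 26 fell and 2 rose, where 1.03% of all genes fell and 1.43% rose. Flt3, the receptor whose ligand drives dendritic cell production, read 8.89 and 8.71 in wild type, compared with 7.24 and 7.70 in leukaemic spleen (-1.33, SE 0.19). Notch2, which ESAM-bearing cDC2 require, read 11.04 and 11.11 against 9.90 and 10.26 (-0.997, SE 0.17), and marginal zone B cells express it too. Hepacam2, an immunoglobulin superfamily gene, differed by -1.12 (SE 0.16), Traf1, a TNF receptor adaptor, by -1.62 (SE 0.26), and Cd4, carried by cDC2 and T cells, by -1.46 (SE 0.22). Irf4, a transcription factor of cDC2 and of B lineage cells, rose by 1.02 (SE 0.16), and Dpp4, the peptidase CD26, by 0.89 (SE 0.16). Limma adjusted p for these 7 genes ran from 0.027 to 0.043. The leukaemic means of Flt3 and Hepacam2, at 7.47 and 6.26, and that of Ccr9, at 6.73, lay below the highest value of the genes foreign to spleen.

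In the maturation list 0 of 13 fell and 1 rose, where 1.03% of all genes fell and 1.43% rose. At an unadjusted limma p under 0.05, 9 were lower and 1 higher, against 10.6% of all genes lower and 1939 of 19297 higher. Socs2, a feedback inhibitor of cytokine signalling, rose from 9.79 and 9.49 to 12.22 and 11.40 (2.17, SE 0.27, limma adjusted p = 0.020). Irf8, the transcription factor of cDC1 and plasmacytoid cells, is outside the naming rule and was picked after its values were seen. It read 11.47 and 11.34 in the wild type mice, against 10.41 and 10.97 in the leukaemic mice, and did not pass (-0.71, SE 0.21, limma adjusted p = 0.12). As for the first 30 genes, 0 of the 53 were called without wild type replicate 1 or without wild type replicate 2, with 27 and 36 at an unadjusted p under 0.05.

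**Figure D3:**
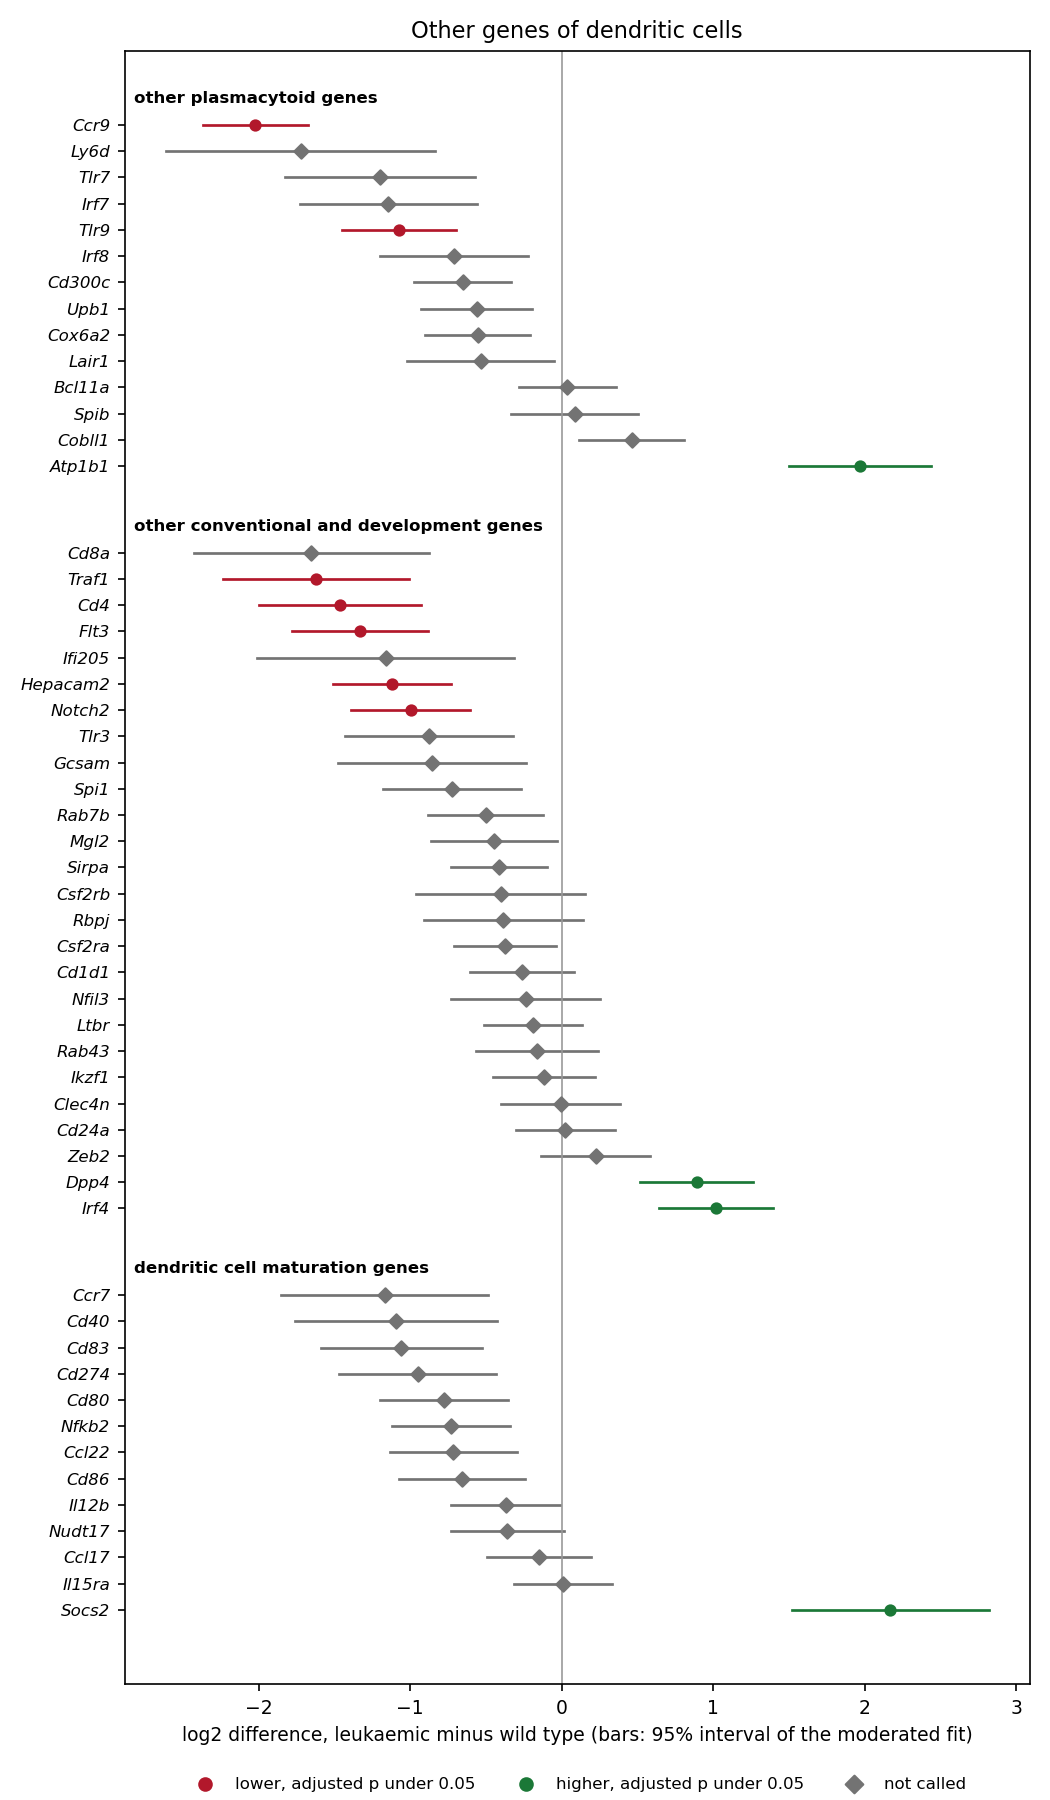
Points show the log2 difference of leukaemic minus wild type spleen for 53 further dendritic cell genes in 3 lists, with bars for the 95% interval and colour for called genes. Ccr9 at -2.02 and Socs2 at 2.17 stand at opposite ends, and most other points lie left of 0.

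Markers of other cells moved on the same arrays, and their part in the dendritic cell differences was not tested. Of 10 precursor B cell markers 8 rose, where 1.43% of all genes rose and 1.03% fell. Their summed level (log2 of summed unlogged values) went from 12.19 to 12.34 in wild type to 14.56 to 14.60 in leukaemic spleen. The summed level of the 30 dendritic cell genes was 15.12 to 15.36 in wild type and 14.70 to 14.86 in leukaemic spleen. Of 9 general B cell markers 1 rose and 2 fell, with summed levels of 14.91 to 15.16 and 14.62 to 14.88. At an unadjusted limma p under 0.05, 5 of them were lower and 1 higher, against 10.6% of all genes lower and 1939 of 19297 higher.

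T cell markers fell in 5 of 9 cases, where 1.03% of all genes fell. Their summed levels were 13.55 to 13.89 in wild type and 12.12 to 12.58 in leukaemic spleen. NK cell markers fell in 4 of 10, from 11.13 to 11.55 down to 9.70 to 10.20. Neutrophil markers fell in 3 of 12, from 14.79 to 14.80 down to 13.42 to 14.21. At an unadjusted limma p under 0.05, 9 T cell, 7 NK cell and 11 neutrophil markers were lower and 0 higher. Of all genes, 10.6% were lower and 1939 of 19297 higher by that measure. Of 13 macrophage and 9 monocyte markers 0 were called by limma, with 9 and 5 lower at an unadjusted p under 0.05 and 1 monocyte marker higher. Their summed levels were 14.68 to 14.95 and 12.90 to 13.18 in wild type, and 14.32 to 14.34 and 12.39 to 12.67 in leukaemic spleen. Plasma cell markers, 0 of 8 called with 3 lower at an unadjusted limma p under 0.05, had summed levels of 13.81 to 13.96 and 13.22 to 14.02. Erythroid markers, 0 of 5 called with 3 lower at an unadjusted p under 0.05, had 13.94 to 14.42 and 13.77 to 13.83. No marker has a value of 0 on this scale.

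The median log2 difference was -1.47 for T cell, -1.24 for neutrophil, -1.14 for NK cell, -0.81 for B cell, -0.62 for monocyte and -0.47 for macrophage markers. At -0.73 the dendritic cell median thus lay within the range of the other leukocyte lists, and no test of one list against another was made.

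**Figure D4:**
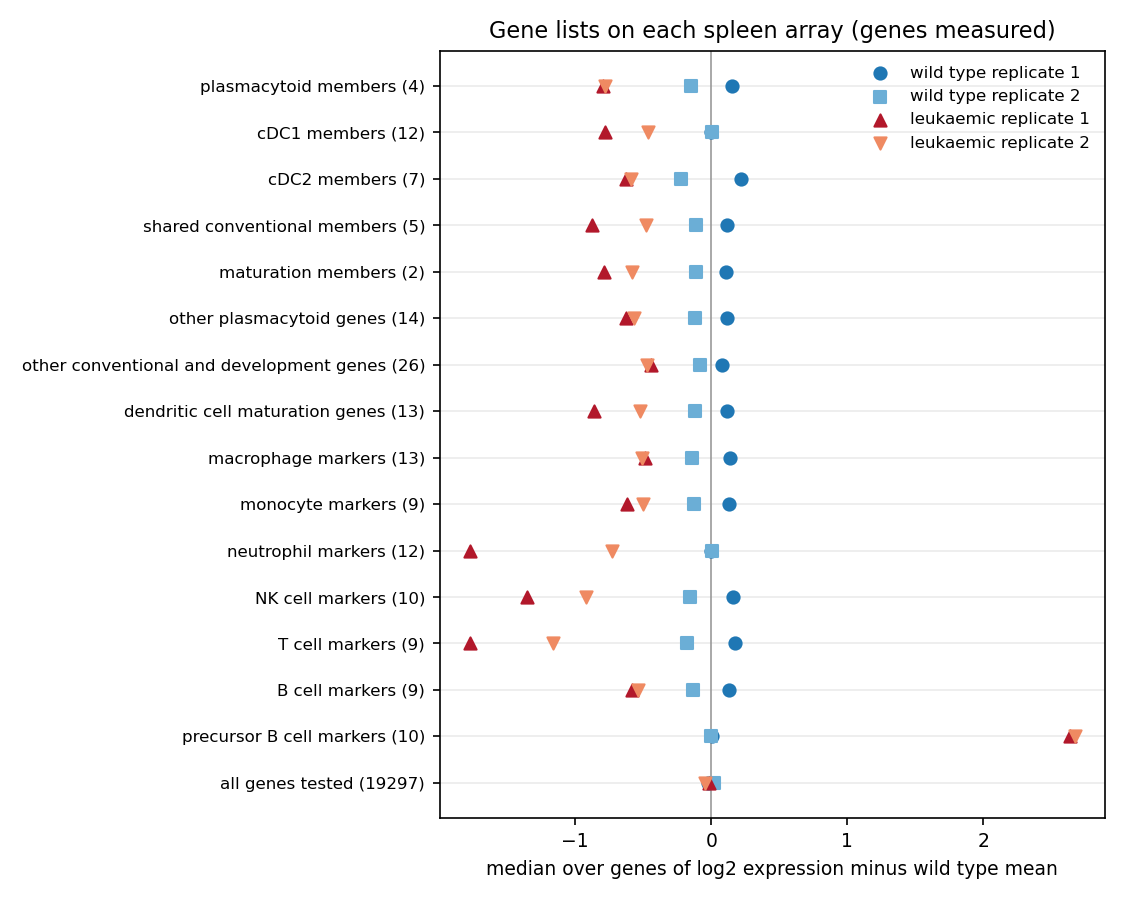
Each symbol is the median, over the genes of a list, of log2 expression minus the wild type mean on 1 array, with the number of genes measured in parentheses. Dendritic cell lists sit near those of macrophages, monocytes and B cells on the leukaemic arrays. T cell and neutrophil markers of leukaemic replicate 1 lie farthest left, and precursor B cell markers lie far right.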

How the data were processed

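RNA of 4 whole spleens was labelled and hybridised to Affymetrix whole-transcript arrays, 1 per mouse, per the labels' protocols. The authors deposited log2 values per probe set. The submitters' processing notes name RMA, R 2.15.0 and limma 3.12.1, without settings. RMA equalises intensity distributions between arrays, so values are relative to each array's whole RNA. Detection calls were not analysed here, and the number of arrays limits the precision.

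Samples were grouped by title, and the replicates of a group are separate mice per the labels. Of 23309 probe sets, 20729 had a single gene symbol, 1174 several and 1406 none. The first class was fitted in R 4.3.3 by limma 3.58.1, using lmFit and eBayes with no covariate and no filter. The probe set with the highest 4-array mean stood for each gene, and Benjamini-Hochberg adjustment ran over 19297 genes. The fit had 2 residual and 4.83 prior degrees of freedom. In 2 against 2 mice an exact two-sided permutation test cannot go below p = 0.333. SE and 95% intervals come from the moderated fit. The functions were tested on simulated data. Summaries of promoters and figures used Python 3.11.15, pandas 2.3.3 and matplotlib 3.10.9.

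All genes of the dendritic cell list were named. From the further lists every called gene was named. The genes and lists were chosen with earlier results of these data known, and the genes foreign to spleen after values were seen. Promoter sequences are RefSeq's, matched by symbol, and shown for the called gene of largest difference in a role. The alternatives tried were median centring, quantile normalization, dim genes left out, another variance prior, other uses of the probe sets, a replicate block, a minimum difference, and each array left out.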

Additional observations from a re-analysis of the deposited data

How the results depend on the processing

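With 2 mice a group, counts of calls moved more than the differences. Against 475 genes called in all, 7 of the 30 dendritic cell genes and 11 of the 53 further ones, quantile normalization gave 246, 4 and 5, a minimum log2 difference of 0.5 (limma treat) 55, 0 and 2, and a variance prior with an intensity trend and robust estimation together 965, 10 and 17. Median centring called 4 of the 30, as did all probe sets in the fit, and gave 343 higher and 155 lower over all genes, against 276 and 199. With the replicate number as a block the counts were 1693, 17 and 29. Numbers do not pair these mice (r = -0.09 between deviations of same-numbered arrays over genes). Leaving out each array gave 0 to 1043 genes, 0 to 11 of the 30 and 0 to 23 of the 53. These fits have 1 residual degree of freedom, against 2. Without a wild type array the variance prior had 2.79 degrees of freedom and the lone array is taken to vary like the leukaemic group, and without a leukaemic one the prior was infinite, so all genes share a common variance. The conventional median ran from -0.78 to -0.54 with an array left out, the latter without leukaemic replicate 1. The plasmacytoid median ran from -0.91 without wild type replicate 2 to -0.66 without wild type replicate 1. With the dimmest 33.3% of genes left out 7 of the 28 that remained were called, and with the mean of all probe sets 7 of 30. Direction changed with an array left out, and in no other alternative, for 6 uncalled genes. These ranged from -0.19 to 0.0059 for Batf3, -0.53 to 0.026 for Ly75, -0.14 to 0.27 for Ppt1, -0.15 to 0.36 for Esam, -0.56 to 0.35 for Clec7a and -0.21 to 0.0086 for Cst3. The cause of these changes was not tested.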
